A study of Caenorhabditis elegans with 2 samples.

Results

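The genes described here encode the enzymes and scaffolds that attach ubiquitin and related modifiers to proteins in the nematode Caenorhabditis elegans. They are the protein-coding genes whose names begin with ubc-, uba-, cul- or skr- in the Ensembl annotation of genome build WBcel235 (ce11). The rule gave 50 of 19973 protein-coding genes, of which 21 were ubc-, 3 uba-, 6 cul- and 20 skr- genes. LIN-54 binding was mapped by ChIP-seq, in which chromatin is immunoprecipitated and its DNA sequenced, in whole animals of mixed sex at the young adult stage, 65 hours of age. Both samples came from strain OP743, so both carried the unc-119(tm4063) allele and the transgene wgIs743, which holds unc-119(+) beside a lin-54 gene fused to TY1, EGFP and 3xFLAG. The fusion was expressed from a fosmid of the lin-54 locus, the antibody recognised GFP, and the labels give the animals as synchronised by starvation at the L1 stage after bleaching. The 2 biological replicates form 1 group, and no untreated or untagged group was analysed here. The strain is a single transgenic line and each sample pools all tissues of many animals, so a region bound in few cells cannot be told apart from one bound weakly in many.

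Ubiquitin is activated by an E1 enzyme (uba- genes), passed to an E2 conjugating enzyme (ubc- genes) and then placed on a substrate with the help of an E3 ligase. Cullins (cul- genes) are the scaffolds of the largest class of E3 ligases, and Skp1-related proteins (skr- genes) link a cullin to F-box proteins that choose the substrate. Some uba- and ubc- enzymes handle relatives of ubiquitin, among them SUMO, NEDD8 and UFM1, in place of ubiquitin itself. LIN-54 gives the DREAM complex its contact with a DNA element called the cell cycle genes homology region (CHR). Other subunits are EFL-1 and DPL-1, which bind E2F sites, and LIN-35, the worm relative of Rb, and the complex is known as a repressor of cell cycle and germline genes.

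The deposited data are 4 lists of regions, each with a signal value that ranks regions within its list and a summit, the position of highest signal. Relaxed lists of 30000 regions each were given for replicate 1, replicate 2 and the pooled replicates, and a reproducible list of 3449 peaks, called IDR peaks here, had passed an irreproducible discovery rate procedure. IDR signals ran from 98.2 to 7882 with a median of 177. A gene counted as having a promoter peak when a summit lay between 1000 bp upstream and 300 bp downstream of a 5′ end of any of its protein-coding transcripts. As a replicate check the same count was made with the 3449 strongest regions of each replicate, which reached down to a signal of 53.6 in replicate 1 and 52.8 in replicate 2. Read depth is unknown, so no interval is given for a signal value, and signals of different lists are set side by side without a test.

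A promoter IDR peak was present at 14 of the 50 genes, in windows of all 4 families. These were uba-1, uba-2 and uba-5, then ubc-3, ubc-6, ubc-7, ubc-9, ubc-12, ubc-18 and ubc-25, then cul-3 and cul-4, and last skr-17 and skr-18. To show what lay under the summits, the 101 bases centred on the IDR summit are printed for 8 of these genes. The set covers peaks with both an E2F and a CHR match (uba-1, ubc-7, ubc-18, skr-18), with one of them (cul-3, cul-4) and with neither (ubc-6, ubc-9). Letters in capitals mark E2F matches (TTNNCGC, with C or G at each N) and CHR matches (TTNGAA, with C or T at N). Both were read on either strand, so GCGNNAA and TTCNAA in capitals are the same elements on the opposite strand. Sequences are from the RefSeq genome of build WBcel235 and run 5′ to 3′ on the strand of the named gene.
uba-1: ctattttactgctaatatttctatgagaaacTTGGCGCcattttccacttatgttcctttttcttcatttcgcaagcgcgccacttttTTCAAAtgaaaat
ubc-7: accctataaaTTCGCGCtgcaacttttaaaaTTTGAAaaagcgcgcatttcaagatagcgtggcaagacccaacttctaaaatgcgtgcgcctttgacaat
ubc-18: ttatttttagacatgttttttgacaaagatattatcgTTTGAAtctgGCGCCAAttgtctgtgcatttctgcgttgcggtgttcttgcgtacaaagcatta
ubc-6: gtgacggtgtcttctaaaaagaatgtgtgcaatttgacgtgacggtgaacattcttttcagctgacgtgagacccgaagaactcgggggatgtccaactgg
ubc-9: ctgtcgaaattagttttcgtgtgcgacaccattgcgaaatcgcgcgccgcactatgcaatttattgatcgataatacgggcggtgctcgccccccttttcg
cul-3: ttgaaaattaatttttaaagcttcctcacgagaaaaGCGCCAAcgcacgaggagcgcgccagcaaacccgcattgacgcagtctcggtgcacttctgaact
cul-4: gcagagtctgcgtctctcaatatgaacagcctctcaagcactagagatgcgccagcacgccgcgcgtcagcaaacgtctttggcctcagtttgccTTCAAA
skr-18: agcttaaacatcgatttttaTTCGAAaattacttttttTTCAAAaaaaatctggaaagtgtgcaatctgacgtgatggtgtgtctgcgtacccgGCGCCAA
The windows are chrIV:9995133-9995233 on the minus strand, chrIII:9631448-9631548 on the minus strand, chrIII:7068813-7068913 on the minus strand and chrII:7478831-7478931 on the plus strand. The others are chrIV:4650743-4650843 on the plus strand, chrV:177025-177125 on the plus strand, chrII:7301807-7301907 on the plus strand and chrIV:795630-795730 on the minus strand. All 8 lay between genes in the annotation.

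The share of genes with a promoter IDR peak was 28.0% over the 50 genes (14 of 50), beside 14.3% of all protein-coding genes (2859 of 19973). It was 3 of 3 for the uba- genes, 33.3% for the ubc- genes (7 of 21), 33.3% for the cul- genes (2 of 6) and 10% for the skr- genes (2 of 20). The cul- and skr- counts are each within about 1 gene of what the share of all genes would give, so neither family is set apart by them. With the strongest regions of replicate 1 alone, 11 of the 50 genes (22.0%) had a summit in the window, beside 13.8% of all genes. With those of replicate 2 alone, 14 of 50 (28.0%) had one, beside 14.3% of all genes. By family the counts in replicate 1 were 2 uba-, 6 ubc-, 2 cul- and 1 skr- gene, and in replicate 2 they were 3, 7, 2 and 2. In every list the uba- share was the highest and the skr- share the lowest. No test was made of these counts, since the families were chosen with results of the data known.

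**Figure D1:**
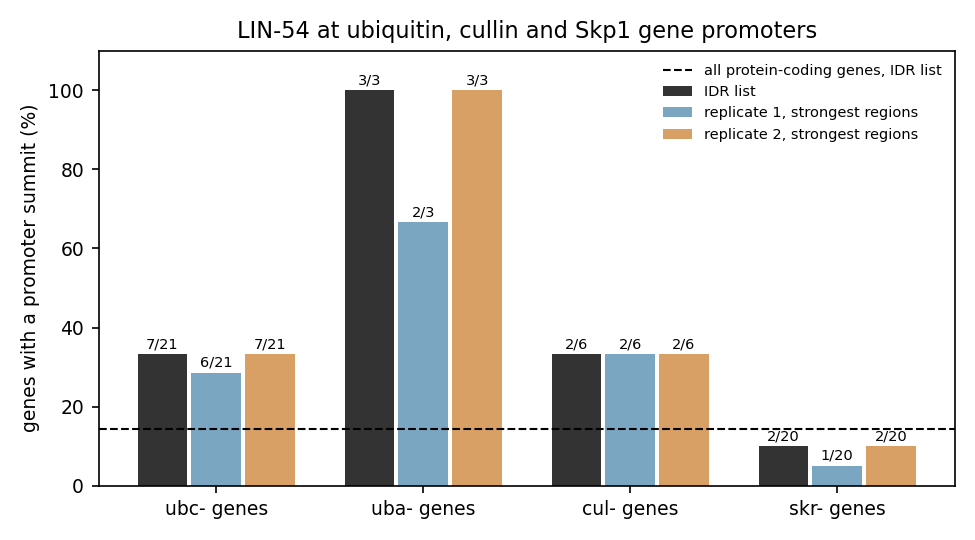
Percent of genes in each family with a LIN-54 summit in the promoter window, for the IDR list and for the 3449 strongest regions of each replicate; numbers over the bars are genes with a summit of genes in the family. The dashed line is the 14.3% of all protein-coding genes with a promoter IDR peak, and the skr- bars are the ones below it.

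In the relaxed lists, which hold many weak regions, the skr- share was again the lowest. A pooled relaxed summit lay in the window of 24 of the 50 genes (48.0%), beside 38.0% of all genes, and these were 13 ubc-, 3 uba-, 4 cul- and 4 skr- genes. In the relaxed list of replicate 1 the count was 28 of 50 (56.0%), beside 40.1% of all genes, and in that of replicate 2 it was 28 of 50 (56.0%), beside 39.9%. Of the 24 genes with a pooled relaxed summit, 14 (58.3%) had an IDR peak, beside 37.7% of all genes with a pooled relaxed summit. At the other end, 19 of the 50 genes (38.0%) had no summit in any of the 3 relaxed lists, beside 52.3% of all genes. Those 19 were 14 of the 20 skr- genes (70.0%) and 5 ubc- genes, and no uba- or cul- gene was among them. These counts include the IDR peaks. Among genes with a pooled relaxed summit, an IDR peak was present at 7 of 13 ubc-, 3 of 3 uba-, 2 of 4 cul- and 2 of 4 skr- genes, so the ubc-, cul- and skr- shares were alike there.

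**Figure D2:**
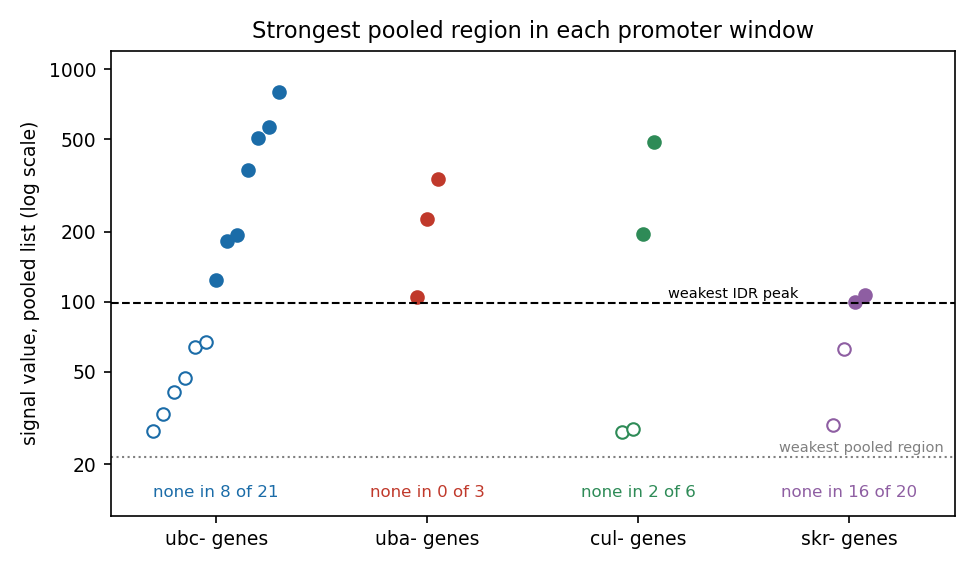
Signal value (log scale) of the strongest pooled region in each gene's promoter window, by family, with filled points for genes that have an IDR peak and open points for those that do not. Filled points start at the weakest IDR peak (dashed line, 98.2), open points reach 66.9, and 16 of the 20 skr- genes had no pooled region at all.

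All 3 uba- genes had a promoter IDR peak. uba-1 encodes the E1 for ubiquitin itself, and its peak (chrIV:9995047-9995330) had an IDR signal of 336, with 132 in replicate 1 and 198 in replicate 2. uba-5 encodes the E1 for UFM1, and its peak (chrI:3873933-3874046) had an IDR signal of 227, with 115 in replicate 1 and 106 in replicate 2. Both genes were in the strongest set of both replicates. The uba-5 summit lay in an intron of uba-5, and in the window of the C-type lectin gene clec-53 as well. It was at +292 bp from the nearest 5′ end of uba-5, +545 bp from the outermost one and -376 bp from the innermost one. uba-2, the catalytic subunit of the SUMO E1, had a weak peak (chrI:12741143-12741478) with an IDR signal of 105, rank 3157 of 3449. Its strongest replicate 2 region had a signal of 71.3 at -310 bp. In replicate 1 the strongest region of the window, signal 48.9, lay at -820 bp, and the region under the IDR peak had a signal of 37.1. The uba-2 peak was therefore in the strongest set of replicate 2 alone, and the 5′ end nearest to it was that of the divergent gene vps-25.

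Subunits of the SUMO and NEDD8 E1 enzymes with other names had weaker regions. aos-1, the other subunit of the SUMO E1, had a single pooled region with a signal of 23.2 and none in either replicate list. ula-1 and rfl-1, the subunits of the NEDD8 E1, had pooled signals of 45.4 and 91.2, the latter just under the weakest IDR peak at 98.2. rfl-1 had 41.5 in replicate 1 and 54.7 in replicate 2. None of the 3 had an IDR peak, but rfl-1 was in the strongest set of replicate 2, as uba-2 was, and its replicate 1 signal was above the 37.1 under the uba-2 peak.

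Among the E2 genes, ubc-7 had the strongest peak of all 50 genes (chrIII:9631358-9631634), with an IDR signal of 794, rank 166 of 3449. Its signal was 320 in replicate 1 and 465 in replicate 2. ubc-9, the E2 for SUMO, followed with an IDR signal of 564 (chrIV:4650617-4650930), 293 in replicate 1 and 266 in replicate 2. ubc-6 had an IDR signal of 506 (chrII:7478751-7479044), with 246 and 250, from a peak that also lay in the window of the divergent gene aka-1. ubc-18 had an IDR signal of 370 (chrIII:7068755-7068956), with 193 in replicate 1 and 185 in replicate 2. ubc-18 is known from worm genetics for acting together with lin-35 in development of the pharynx, and its peak was shared with the divergent gene R01H2.8, whose 5′ end was nearer. The lowest replicate rank among these genes was 646, for ubc-18 in replicate 2.

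The other E2 peaks were weaker. ubc-25 had an IDR signal of 194 (chrI:10562593-10562680), with 109 in replicate 1 and 88.3 in replicate 2. ubc-3, the E2 of the CDC34 type that works with cullin ligases, had an IDR signal of 183 (chrI:1697864-1698199), with 107 and 88.2. Both were in the strongest set of each replicate. ubc-12, the E2 for NEDD8, the modifier that activates cullins, had an IDR signal of 124 (chrI:11910892-11911227). Its signal was 42.6 in replicate 1, rank 4942, and 80.8 in replicate 2, rank 2025, so it was in the strongest set of replicate 2 alone. The summit positions of ubc-12 were -259 and -260 bp in the replicates, and the 5′ end nearest to it was that of the divergent gene rbm-3.2.

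The other 14 ubc- genes had no IDR peak, and none of them had a strongest-set summit in either replicate. ubc-1, the RAD6-type E2, came nearest with a pooled signal of 66.9, and 35.2 in replicate 1 and 33 in replicate 2. The other pooled signals were 63.6 for ubc-19, 46.7 for ubc-20, 41.0 for ubc-8, 32.7 for ubc-14 and 27.8 for ubc-26. ubc-13 and ubc-16 had regions in both replicate lists and ubc-15 in that of replicate 2, with signals from 13.4 to 33.4, but none had a pooled summit in the window. ubc-17, ubc-21, ubc-22, ubc-23 and ubc-24 had no summit in any list. Between the weakest called gene, skr-18 at 99.7, and the strongest uncalled one, ubc-1 at 66.9, there was no gene of the 4 families.

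**Figure D3:**
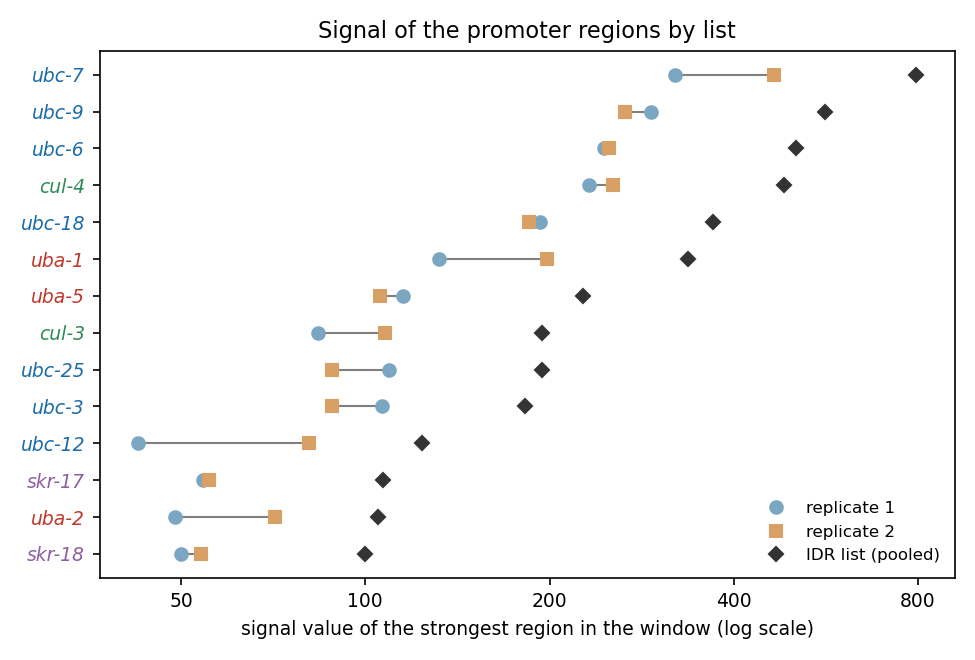
Signal value (log scale) of the strongest region in the promoter window of the 14 genes with an IDR peak, in replicate 1, replicate 2 and the IDR list, ordered by IDR signal; gene names are coloured by family. The longest gap between replicates is at ubc-12 (42.6 and 80.8), and the IDR values are on the scale of the pooled list, so their distance from the replicates is not a change.

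Of the cullins, cul-3 and cul-4 had promoter IDR peaks. CUL-4 acts with DDB-1 and CDT-2 on the replication licensing factor CDT-1, and its gene had an IDR signal of 484 (chrII:7301744-7301958), with 232 in replicate 1 and 254 in replicate 2. CUL-3 acts with the BTB protein MEL-26 on the meiotic katanin MEI-1, and its gene had an IDR signal of 194 (chrV:176907-177242), with 83.6 and 108. Both were in the strongest set of each replicate, and neither peak lay in the window of another gene. The gene of the SCF scaffold, cul-1, had a pooled signal of 28.4, a replicate 1 signal of 25.8 and no replicate 2 region. cul-5 had a pooled signal of 27.4, with 20.4 in replicate 1 and 13.9 in replicate 2. cul-2 had a region in replicate 1 alone, signal 22.3, and cul-6 in replicate 2 alone, signal 14.8. Every cullin window thus held a region in some list. The lowest signals in the lists were 13.2 in replicate 1, 13.6 in replicate 2 and 21.5 in the pooled list.

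Both Skp1 peaks were near the bottom of the IDR list. skr-17 had an IDR signal of 107 (chrII:7783598-7783933), rank 3066, with 54.4 in replicate 1 and 55.6 in replicate 2. Its summit lay inside the gene, in the 5′ untranslated region, at +241 bp. skr-18 had an IDR signal of 99.7 (chrIV:795512-795847), rank 3374, with 50 in replicate 1 and 53.9 in replicate 2. skr-17 was in the strongest set of both replicates and skr-18 in that of replicate 2 alone. The coding sequences of the pair were 73.0% identical, and the next most similar family member was skr-2 for skr-17 (56.9%) and skr-1 for skr-18 (56.0%).

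skr-1, which encodes a Skp1 partner of CUL-1, had no IDR peak. Its pooled signal was 62.6 at +292 bp, with 31.6 in replicate 1 at -179 bp and 46.8 in replicate 2 at +297 bp, so the replicates placed the strongest region on opposite sides of the 5′ end. skr-4 had a pooled signal of 29.5, skr-3 a replicate 2 signal of 15.4 and skr-15 a replicate 1 signal of 17.3. The 14 skr- genes with no summit in any list were skr-2, skr-5 to skr-10, skr-12, skr-13, skr-14, skr-16, skr-19, skr-20 and skr-21. Several of these are near-identical copies, with coding identities of 97.9% for skr-12 and skr-13 and 96.2% for skr-8 and skr-9. The labels and files do not say how reads from repeated sequence were placed. More than 10% of the 50-base words of the promoter window occurred elsewhere in the genome for 5 of the 50 genes, beside 10.5% of all genes. They were skr-8 and skr-9 (30.4% each), skr-13 (28.8%), skr-12 (14.4%) and ubc-3 (15.2%). The windows of the other 10 skr- genes with no summit held no such words, and the part of repeats in the result was not tested.

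The X chromosome held 7 of the 50 genes, ubc-17, ubc-21, ubc-22, ubc-23, skr-19, skr-20 and skr-21. None of the 7 had an IDR peak, which is near the share of all X-linked genes with one, 3.73%. None of the 7 had a summit in any relaxed list either, beside 52.3% of all genes on any chromosome without one. The share of X-linked genes without a relaxed summit was not computed. On the autosomes 14 of 43 genes (32.6%) had an IDR peak, beside 16.0% of all autosomal genes. Of the 17 autosomal skr- genes, 2 had a peak (11.8%), which is near the share of all autosomal genes.

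**Figure D4:**
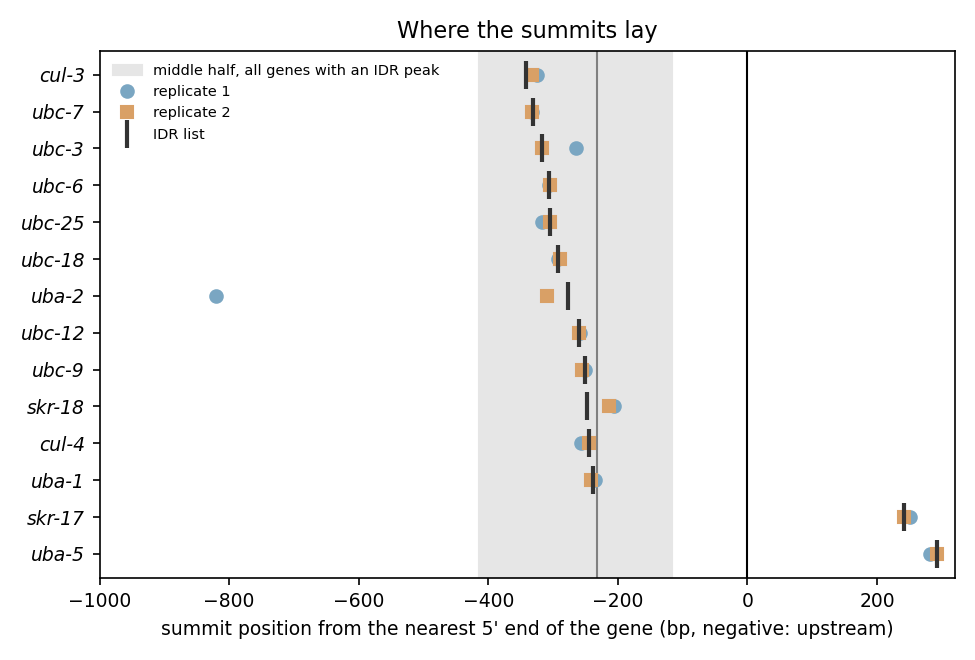
Position of the summit relative to the nearest 5′ end of the gene (bp, negative is upstream) for the 14 genes, with IDR, replicate 1 and replicate 2 summits; the grey band runs between the quartiles of all genes with an IDR peak (-415 and -116.5 bp) and the grey line their median, -232 bp. The summits of 12 genes line up between -342 and -238 bp, and uba-5 and skr-17 are downstream.

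Most of the 14 summits lay at similar distances upstream of the nearest 5′ end of the gene, and those of uba-5 and skr-17 lay downstream of it. The median position was -268.5 bp over the 14 genes, beside -232 bp over all genes with an IDR peak, whose quartiles were -415 and -116.5 bp. Of the 14 summits, 12 lay upstream, all between cul-3 at -342 bp and uba-1 at -238 bp, a span of 104 bp. That span held 16.1% of the summits of all genes with an IDR peak (459 of 2859). The span was drawn from the genes after their values were seen, so the comparison is a description. The ubc- summits ran from -331 bp (ubc-7) to -251 bp (ubc-9). Replicate summits differed by a median of 7 bp over the 14 genes, beside 15 bp over all genes with a peak. Between the strongest regions of a window, the widest gaps were at uba-2 (-820 and -310 bp) and ubc-3 (-264 and -317 bp). At uba-2 the strongest replicate 1 region was not the one under the IDR peak. The regions under that peak had summits 4 bp (replicate 1) and -33 bp (replicate 2) from the IDR summit. Of the 14 peaks, 6 had the width of 336 bp that 52.0% of IDR peaks share, and 5 lay in the window of another gene as well.

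The median IDR signal of the 14 genes was 210, beside 222 over all genes with a promoter IDR peak. By family the median was 370 for ubc-, 339 for cul-, 227 for uba- and 103 for skr- genes. The log2 ratio of the replicate 1 signal to the replicate 2 signal had a median of -0.07 (SD 0.37, n = 14 genes). Over all genes with a promoter IDR peak and a region in both replicate lists it was -0.09 (SD 0.43, n = 2832 genes). For the strongest regions in the windows of the 14 genes the ratio ran from -0.92 at ubc-12 to 0.31 at ubc-25. At uba-2 the strongest replicate 1 region is not the one under the IDR peak, whose lower signal of 37.1 is not in that range. Of the 14 genes, 11 were in the strongest set of both replicates, and ubc-12, uba-2 and skr-18 in that of replicate 2 alone.

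An E2F match lay within 50 bp of the summit at 7 of the 14 peaks (50%), beside 21.1% of all 2281 promoter IDR peaks. A CHR match lay within 50 bp at 7 of 14 (50%), beside 38.8%. With the peaks and summits of replicate 1 alone, that is without replicate 2, the CHR share was 27.3% of 11 genes. This is lower than 38.8%, but that share was taken at IDR summits. No share over all promoter peaks was computed at replicate 1 summits. Both kinds were present at 5 peaks (35.7%), beside 12.1%, and neither at 5 peaks (35.7%), beside 52.3%. In the printed sequences the E2F match of ubc-18 is centred on the summit itself, with a CHR match 4 bases away. The pair in ubc-7 is separated by 14 bases and that in uba-1 by 50 bases. In skr-17, whose sequence is not printed, the matches are 1 base apart. skr-18 had an E2F match at +47 bp and 2 CHR matches at -9.5 and -27.5 bp from the summit. cul-3 and ubc-12 had an E2F match alone, and uba-2 and cul-4 a CHR match alone. ubc-9 and ubc-6, next to ubc-7 in signal, had neither, nor did ubc-3, ubc-25 and uba-5. At ubc-9, E2F matches lay at -88 and +58 bp, outside the distance used. The GC content of the 101 bases ran from 34.7% in uba-1 to 62.4% in ubc-3.

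**Figure D5:**
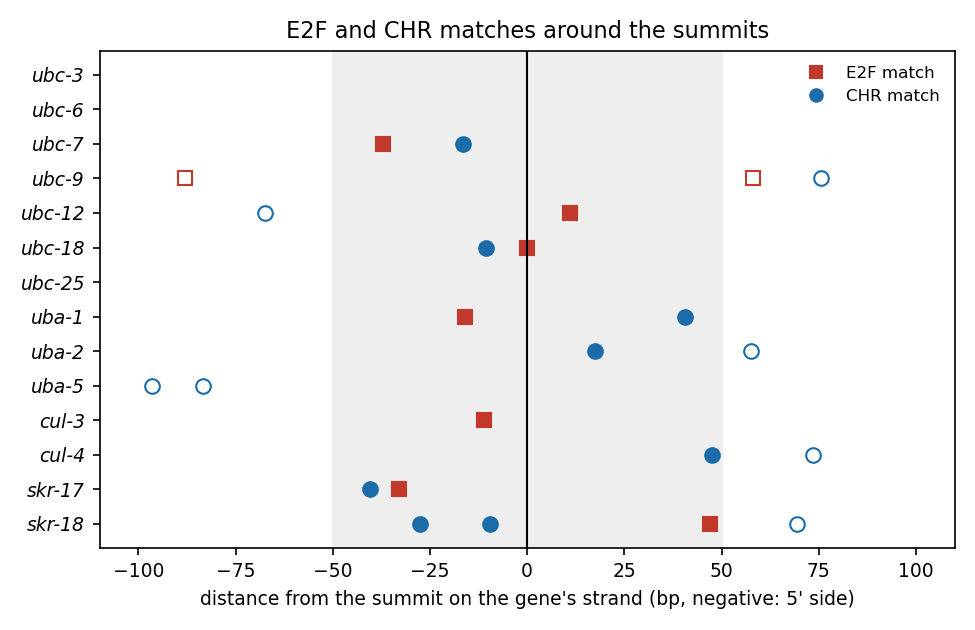
Centres of E2F (squares) and CHR (circles) matches within 100 bp of the IDR summit of the 14 genes, in bp on the strand of the gene; filled symbols lie in the shaded zone of 50 bp either side of the summit. uba-1, ubc-7, ubc-18, skr-17 and skr-18 have both kinds in the zone, and ubc-3, ubc-6, ubc-9, ubc-25 and uba-5 have neither.

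Over the whole promoter window, an E2F match was found in 20 of the 50 genes (40.0%), beside 32.1% of all genes. It was present in 10 of the 14 genes with a peak (71.4%) and in 10 of the 36 without one (27.8%). The same shares over all genes with and without a peak were not computed. Whether the difference is particular to these families was therefore not tested. By family the counts were 10 of 21 ubc-, 2 of 3 uba-, 3 of 6 cul- and 5 of 20 skr- genes, and the skr- share (25%) was near that of all genes. The CHR letters occur in nearly every window, in all 50 genes and in 99.1% of all genes, and so do not separate the families. A match is a description of letters in these windows and not a measured site.

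Other genes of the pathway were counted by the same rule, beside the 14.3% of all genes. The modifiers themselves had the highest share, with IDR peaks at 8 of 10 genes for ubiquitin and ubiquitin-like proteins. They were ubq-2 (IDR signal 506), smo-1, the SUMO gene (414), lgg-2, ubl-1, ubq-1, lgg-1, ubl-5 and urm-1, and 8 of the 10 genes were in the strongest set in replicate 1 and 9 in replicate 2. ned-8 (pooled signal 58.9) and ufm-1 (69.8) had none. The peaks of ubq-2 and urm-1 also lay in the window of another gene, and those of the other modifier genes did not. For SUMO, the modifier gene smo-1, the E1 subunit gene uba-2 and the E2 gene ubc-9 had peaks, while aos-1 did not. Of the SUMO ligase and proteases, 0 of 6 genes had one, with 1 of 6 in the strongest set of each replicate, and the strongest pooled signal was 94.7 at ulp-3. For NEDD8, the E2 gene ubc-12 had a peak and ned-8, ula-1 and rfl-1 did not.

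Among 12 other activating and conjugating enzymes, 4 had a peak (33.3%), namely let-70 (198), an essential E2, atg-7 (155), uev-1 (123) and atg-3 (104). Of 8 cullin partners, 3 had one, namely the elongin B gene elb-1 (928), dcn-1 (244) and the CUL-4 adaptor gene ddb-1 (111), with 2 in the strongest set in replicate 1 and 5 in replicate 2. The RING subunit gene rbx-1 had a pooled signal of 85.0 and no peak. Of 7 genes of the COP9 signalosome, which removes NEDD8 from cullins, csn-1 (275) alone had a peak. Of 14 cullin substrate receptors, 4 had one, namely the SCF F-box gene prom-1 (738), lin-23 (276), the CUL-4 receptor gene cdt-2 (179) and the CUL-3 adaptor gene mel-26 (98.6). Of the genes with a peak named so far in this paragraph, atg-3 and mel-26 were in the strongest set of replicate 1 alone. ddb-1 was in that of replicate 2 alone. The peaks of let-70, uev-1, atg-3, elb-1, dcn-1, ddb-1, csn-1 and prom-1 also lay in the window of another gene. Those of atg-7, lin-23, cdt-2 and mel-26 did not. HECT ligases, which need no cullin, had peaks at wwp-1 (1568) and eel-1 (925), 2 of 6 genes. Deubiquitinating enzymes had peaks at 11 of 21 genes (52.4%), the strongest at usp-4 (628). The strongest set also held 11 of them in each replicate, but in replicate 2 it held usp-5, which had no peak, and not otub-3. The peaks of usp-3, usp-14, usp-48, ubh-4 and math-33 also lay in the window of another gene.

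The large families of substrate adaptors had lower shares than all genes. Of 322 F-box genes named fbxa-, fbxb- or fbxc-, 10 had a promoter IDR peak (3.11%), with 11 in the strongest set in replicate 1 and 9 in replicate 2. The strongest was at fbxa-90 (976), a peak that also lay in the window of efl-1, the E2F gene of the DREAM complex. Of 53 BTB and MATH-BTB genes, 3 had one (5.66%), namely bath-42 (773), bath-36 and btb-20. All 3 of these peaks also lay in the window of another gene.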

How the data were processed

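Binding of tagged LIN-54 was measured in 2 replicates of 1 group. Per the deposited description files, the authors made the candidate lists for the irreproducible discovery rate procedure from aligned reads with a control. The labels and files do not say which aligner, peak caller, signal formula or threshold was used. The deposited signal value of each region is the authors' own, on a linear scale, and the other deposited column used is the summit offset. All 4 lists use build ce11 per the labels. Depth is unknown.

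Positions are 1-based. Python 3.11.15 and numpy 2.4.6 were used, and figures drawn with matplotlib 3.10.9. Genes and 5′ ends came from Ensembl release 115 and sequence from the RefSeq genome of the same build. The deposited lists name no genes. For a gene with several summits in the window the strongest was used. The window and motif searches were tested on simulated regions and sequences, and the family counts were not. The genes, lists, windows and motifs were chosen with earlier results of these data known, so no test was run. Every gene of the 4 families is named, together with the strongest gene of each further list and all genes with a peak where a list has 5 or fewer; pathway genes outside that rule were chosen after their values were seen. Alternatives were other windows, the strongest 1724 peaks of the IDR list, each replicate left out, nearest-gene assignment, the outermost 5′ end and other motif distances. The control library itself was not analysed here.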

Additional observations from a re-analysis of the deposited data

How the results depend on the processing

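The count of genes with a promoter peak stayed between 10 and 15 of 50 under every alternative, beside 14. It was 10 with the strongest 1724 IDR peaks (without skr-17, skr-18, uba-2 and ubc-12), 11 with nearest-gene assignment (without uba-2, ubc-12 and ubc-18), 13 with the outermost 5′ end (without uba-5) or a window of 500 bp upstream to 100 bp downstream (without skr-17), and 15 with 2000 bp upstream to 500 bp downstream (with ubc-8). With replicate 1 alone it was 11 (22.0%), beside 13.8% of all genes, and with replicate 2 alone 14 (28.0%), beside 14.3%. For the other windows, the strongest 1724 peaks, nearest-gene assignment and the outermost 5′ end, the share of all genes was not computed. Whether the 50 genes stay above that share there was therefore not tested. The skr- count, 2, was 1 with the narrow window and 0 with the strongest 1724 peaks, and 1 to 2 when a replicate was left out. The median signal was 112 on the scale of the replicate 1 list and 107 on that of replicate 2, beside 210; the lists differ in scale. Within 25 bp of the summit the share of peaks with a match was 28.6% for E2F (13.0% of all promoter IDR peaks) and 28.6% for CHR (17%), and within 100 bp it was 57.1% (25.7%) and 71.4% (59.4%). Leaving out a replicate gave 45.5% to 50% for E2F and 27.3% to 42.9% for CHR, so the CHR share of 50% depends on the summits used: it was 27.3% without replicate 2. Median positions stayed between -275 and -264 bp. No paired analysis was possible because there is 1 group. Depth is unknown, so a gene with no region may have been below detection.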

Other observations

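The peaks of ubc-6 and skr-18 held a similar stretch of 22 bases close to the summit, noticed after the sequences were seen. The stretches differ at 2 positions and are printed on the strand of each gene, from chrII:7478851-7478872 on the plus strand and chrIV:795656-795677 on the minus strand.
ubc-6: gaatgtgtgcaatttgacgtga
skr-18: gaaagtgtgcaatctgacgtga
Allowing any base at those positions, the 22-base pattern occurred at 2 places in the genome, both in IDR peaks. The 18 bases after the first differing position occurred at 4 places, of which 3 lay in IDR peaks. Those bases without the first and the last, a part of 16 bases, occurred at 8 places. Of the 8 places, 7 lay in IDR peaks and 0 in the 26551 other pooled regions. In the ubc-6 peak the 5′ end nearest to this 16-base part was that of aka-1, and in the skr-18 peak that of skr-18. In the other IDR peaks it was nearest to chmp-7 (IDR signal 1069), rif-1.1 (490), spop-1 (353), npp-16 (160) and F56B3.4 (104). The place outside the IDR list was upstream of rme-8. In the 7 peaks the centre of the stretch lay 11.5 to 23.5 bp from the summit, and ubc-6 has neither an E2F nor a CHR match within 50 bp. No test was made of this pattern, which was selected for its match.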
